A study of Mus musculus with 6 samples.

Results

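Homeobox genes outside the Hox clusters were followed through the transcriptome and the H3K27me3 landscape of mouse neural stem cells (NSC). The set was a list of 44 genes chosen by name from the Lhx, Isl, Sine oculis, Dlx, Gsx, Nkx, Dbx, Irx, Otx, Gbx, Emx, En, Barhl and Msx families, and all 44 were found among the 50686 gene identifiers counted. NSC were isolated from the subventricular zone of the cerebral hemispheres of mouse embryos at E16.5, either Wild type (NSC) or STOPFloxBmi1;NestinCre (NSC Bmi1Over), in which Cre driven by Nestin switches on a Bmi1 transgene in neural precursors. RNASeq was available for 2 cultures of each genotype, and H3K27me3 ChIPSeq for 1 library of each, as a list of broad peaks. Whether the sequenced cultures were neurospheres or adherent layers is not given in the sources used here, and the tumour-derived cultures of the study were not analysed here.

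Homeobox genes encode transcription factors that bind DNA through the homeodomain, and in the embryo each is switched on in a restricted region, where combinations of them tell progenitors which part of the brain or spinal cord to build. Where such a gene is not in use, Polycomb repressive complex 2 places trimethylation on lysine 27 of histone H3 (H3K27me3) over its promoter, and Polycomb repressive complex 1, which contains Bmi1, acts with it to keep the gene silent. Genes of this kind are among the classical Polycomb targets of stem cells.

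The RNASeq libraries held between 18112100 and 61353076 reads counted on genes, the lowest and the highest both being NSC Bmi1Over. Bmi1 itself, the targeted gene, stood at 133 and 123 CPM (library-normalised counts) in the NSC libraries and 119 and 113 in the libraries labelled NSC Bmi1Over. Its log2 fold change was -0.15 (adjusted p = 0.463, by the quasi-likelihood test of edgeR with adjustment after Benjamini and Hochberg, as throughout), so these counts do not show a raised Bmi1, and whether they include the transcript of the transgene was not tested. All 13 neural stem cell markers listed were expressed and none was called, with a summed level of 9379 to 9490 TPM (length-normalised counts) in NSC and 6927 to 7822 in NSC Bmi1Over. Markers of other cell types were lower: neuronal markers summed to 259.5 to 285.9 TPM in NSC and 205.5 to 225.5 in NSC Bmi1Over, astrocyte markers to 109.0 to 147.6 and 55.9 to 82.3, with 1 of 4 called lower (Aldh1l1), and oligodendrocyte markers to 20.6 to 20.8 and 10.7 to 25.5. Microglial, mesenchymal, endothelial and erythroid lists summed to at most 1.21 TPM in any library, and Cldn5 and the 4 globin genes had no read. Single genes weigh heavily in these sums: Fabp7 had 4528 and 4295 TPM in NSC and 3194 and 2433 in NSC Bmi1Over. Map2 reached 224.1 TPM among the neuronal and Aldh1l1 108.5 among the astrocyte markers. Of the stem cell markers, Nes, Slc1a3, Olig2 and Egfr had positive log2 fold changes and the others negative ones. What part the marker differences between genotypes play in the values of the homeobox genes was not tested. In such bulk cultures, fewer cells of a type and less RNA per cell cannot be told apart.

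Most of these homeobox genes were silent or nearly silent, while a smaller group was well expressed. Of the 44 genes, 18 reached 1 TPM in every library, and each library held 19 or 20 above that level, whereas 56.2% to 56.7% of all protein-coding genes passed it. TPM are reads per length of exon, scaled to the library, and allow levels of different genes to be compared. The median homeobox gene stood at 0.512 and 0.410 TPM in NSC and 0.225 and 0.269 in NSC Bmi1Over, against 3.24 to 3.58 for all protein-coding genes. Between 7 and 17 of the 44 had no read at all in a library, the 7 being in the deepest library, where the limit that a count of 0 allows is 0.0525 CPM against 0.171 in the shallowest.

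**Figure D1:**
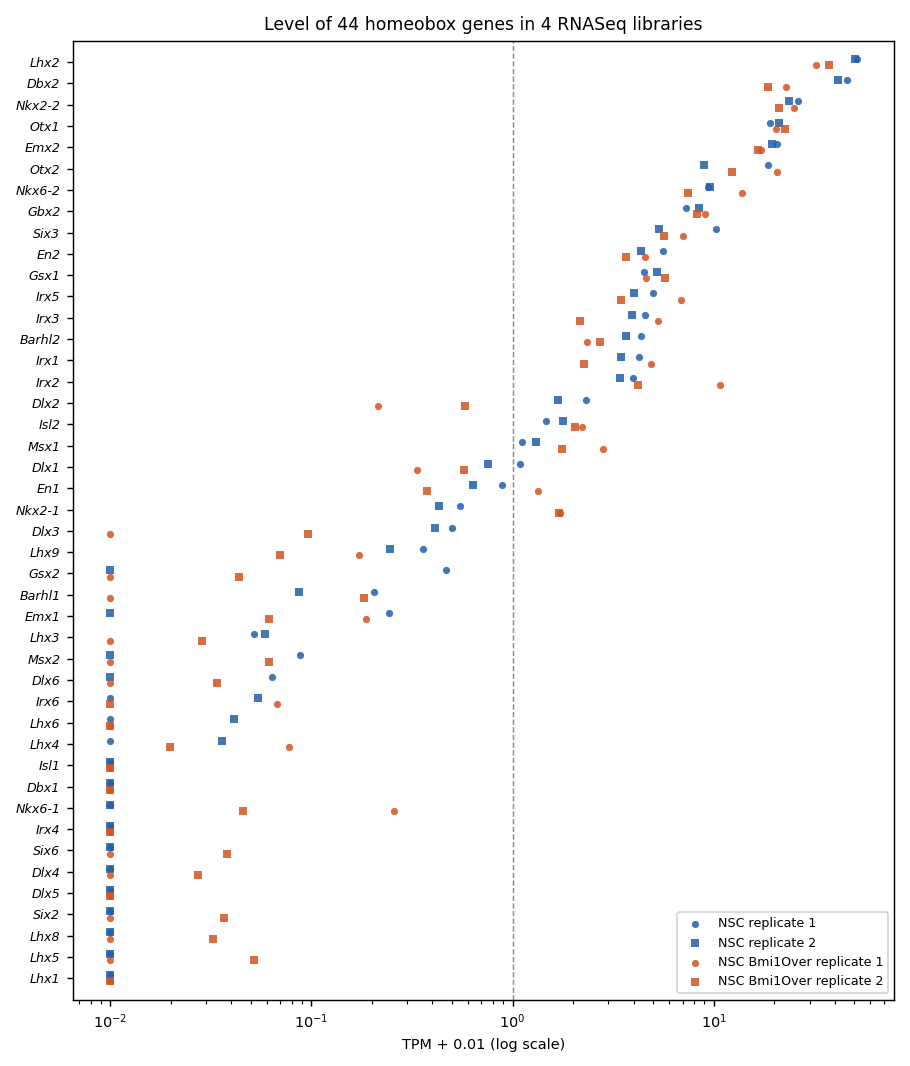
Level of each of the 44 homeobox genes in the 4 RNASeq libraries, as TPM plus 0.01 on a log axis, ordered by the mean in NSC. Circles and squares are replicates 1 and 2, blue for NSC and orange for NSC Bmi1Over, and the dashed line marks 1 TPM. Lhx2 stands at the top at 50.3 to 51.6 TPM in NSC, and the genes at the left edge had no read.

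An H3K27me3 peak lay at or near the promoter of nearly all of the set. A promoter peak, meaning a peak within 5 kb of any annotated transcription start site (TSS), was found at 40 of the 44 genes (90.9%) in the NSC list, where the share among all 22028 protein-coding genes was 8.89%. In the NSC Bmi1Over list it was found at 35 (79.5%), against 4.44% of protein-coding genes. Those 35 carried a peak in both lists, which 4.19% of protein-coding genes did, and Irx5, Irx6, Nkx6-2, Gsx2 and Otx2 carried it in the NSC list alone, which 4.7% did. No homeobox gene carried it in the NSC Bmi1Over list alone, and 4 had none in either list, namely Nkx2-2, Dbx2, Gbx2 and Otx1. A peak in such a window need not fill it: the median gene had 72.4% of its windows under peaks in NSC and 38.6% in NSC Bmi1Over. Each list came from a single library, so a difference between the lists has no replicate check. The methods of the paper give ranges of aligned ChIPSeq reads, whose upper end is higher for NSC than for NSC Bmi1Over, and state that the weaker replicates were discarded, but do not say which total belongs to which list. Depth and genotype therefore cannot be told apart in the number and width of the peaks.

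The domains were broad in NSC and broken into shorter peaks in the NSC Bmi1Over list. At the 40 marked genes, the widest promoter peak of each had a median width of 11658 bp in NSC, from 288 bp at Nkx6-2 to 36247 bp, whereas at the 35 genes marked in NSC Bmi1Over the median was 2407 bp, from 243 bp at Gsx1 to 7813 bp at Nkx2-1. The median peak of the whole lists measured 355 bp and 370 bp. Promoter peaks at these genes numbered 126 in NSC and covered 529664 bp, which was 4.59% of all bases in the list, and in NSC Bmi1Over they numbered 221 and covered 253238 bp, or 5.27%. The median fold enrichment of the widest peaks, as given by the peak caller, was 7.21 and 5.69. The lowest fold listed for any peak was 3.52 in NSC and 4.03 in NSC Bmi1Over, and what part this difference plays in the breaking up of the domains was not tested.

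**Figure D2:**
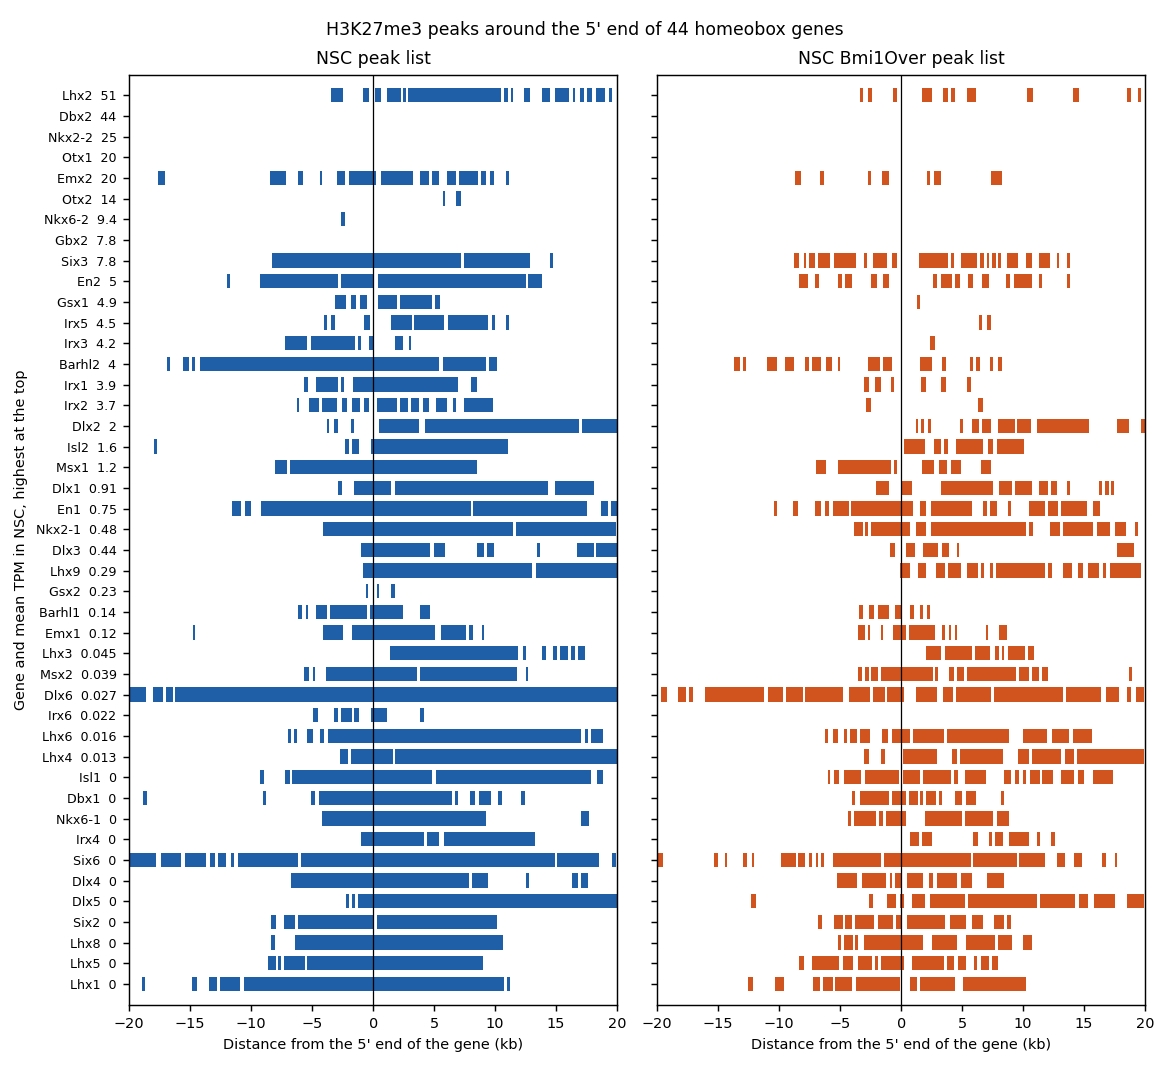
H3K27me3 peaks within 20 kb of the 5′ end of each homeobox gene in the NSC list (blue, left) and the NSC Bmi1Over list (orange, right), with the distance in kb along the direction of transcription and the mean TPM in NSC beside each gene. Long unbroken blocks at the silent genes of the lower rows in NSC are interrupted in NSC Bmi1Over, and the rows of Dbx2, Nkx2-2, Otx1 and Gbx2 are empty.

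The widest domain, 36247 bp on chr6:6847097-6883343, spanned both Dlx5 and Dlx6, neighbouring genes of ventral forebrain and branchial arch development, at a fold enrichment of 8.53. In NSC Bmi1Over the widest promoter peaks of Dlx5 and Dlx6 measured 2830 and 3052 bp. The next widest were a 22393 bp peak at Lhx4, a motor neuron and pituitary regulator, and a 21264 bp peak over the whole of Lhx1, which specifies spinal and cerebellar neurons. Nkx6-1, which specifies motor neuron progenitors, had the highest fold among the widest peaks, 9.55 over 13439 bp. Its widest peak in NSC Bmi1Over was 3094 bp long, with a fold of 6.04.

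The breadth of the NSC domain went along with whether a promoter peak was also in the NSC Bmi1Over list. All 30 homeobox genes whose widest NSC peak measured 4 kb or more were marked in both lists, as were 98.6% of the 356 protein-coding genes with such a peak. Of the 7 with a widest peak of at least 1000 bp but under 4 kb, 5 were marked in both, against 73.6% of 515 protein-coding genes, and the exceptions were Irx5 and Irx6. Of the 3 with peaks under 1000 bp, Nkx6-2, Gsx2 and Otx2, none was, against 17.8% of 1087. In all, 87.5% of the homeobox genes marked in NSC were also marked in NSC Bmi1Over, against 47.1% of protein-coding genes marked in NSC. Homeobox genes of the list made up 2.04% of the marked protein-coding genes and 8.43% of those with a peak of 4 kb or more.

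The mark extended over the gene bodies. The median homeobox gene had 88.9% of its body under NSC peaks and 34.6% under NSC Bmi1Over peaks, where protein-coding genes with a promoter peak had medians of 2.59% and 2.46%. Gene lengths were not matched here, and a peak of a given width fills more of a short gene. In NSC 12 of the 44 genes lay wholly under peaks and 29 had over 50% of the body covered, while in NSC Bmi1Over only Six6, an eye field gene, lay wholly under peaks and 20 had over 50%. The share of protein-coding genes with over 50% of the body covered was 1.28% in NSC and 0.722% in NSC Bmi1Over, or 14.4% and 16.3% of those with a promoter peak. Bases under peaks in the promoter windows of the set came to 386015 in NSC and 229720 in NSC Bmi1Over, 59.5% of the NSC length. Over whole peaks of the genome, a measure not cut to windows and so unlike, they came to 11542075 and 4807073 bp, 41.6%. These are differences between single libraries.

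**Figure D3:**
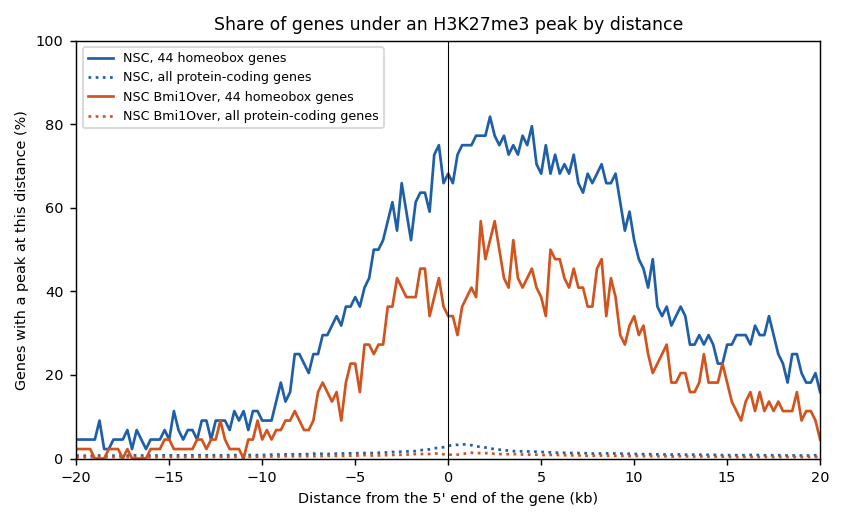
Share of genes with an H3K27me3 peak at each distance from the 5′ end, in steps of 250 bp along the direction of transcription, for the 44 homeobox genes (solid) and all 22028 protein-coding genes (dotted) in the NSC list (blue) and the NSC Bmi1Over list (orange). At 2250 bp downstream 81.8% of the homeobox genes were under an NSC peak and 52.3% under an NSC Bmi1Over peak, and at position 0 the shares were 68.2% and 34.1%.

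Upstream sequences were read from the RefSeq promoter table for the mouse genome (GRCm38.p6, the assembly of mm10), which held 34 of the 44 genes and not Lhx5, Dlx3, Dlx4, Dlx5, Dlx6, Irx1, Irx5, Irx6, Otx1 or En2. The 250 bases before the RefSeq start are shown, 5′ to 3′ on the strand of the gene, with CG dinucleotides in capitals because H3K27me3 in stem cells lies mostly over CG-rich promoters. Dbx2 chr15:95654772-95655021 (minus strand), Nkx2-2 chr2:147186403-147186652 (minus strand) and Gbx2 chr1:89931177-89931426 (minus strand) were the only genes of the 34 with no promoter peak in NSC, and none of their bases shown lay under a peak in either list.
Dbx2 upstream: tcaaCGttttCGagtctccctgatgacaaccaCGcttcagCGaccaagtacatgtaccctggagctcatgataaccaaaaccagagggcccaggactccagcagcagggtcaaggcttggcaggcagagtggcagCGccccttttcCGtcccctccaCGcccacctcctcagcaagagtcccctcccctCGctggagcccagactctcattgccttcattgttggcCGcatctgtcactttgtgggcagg
Nkx2-2 upstream: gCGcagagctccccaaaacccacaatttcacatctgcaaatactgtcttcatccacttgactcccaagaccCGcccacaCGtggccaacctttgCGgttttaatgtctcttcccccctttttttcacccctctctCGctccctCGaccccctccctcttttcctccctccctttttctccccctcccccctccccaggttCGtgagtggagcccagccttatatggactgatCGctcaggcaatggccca
Gbx2 upstream: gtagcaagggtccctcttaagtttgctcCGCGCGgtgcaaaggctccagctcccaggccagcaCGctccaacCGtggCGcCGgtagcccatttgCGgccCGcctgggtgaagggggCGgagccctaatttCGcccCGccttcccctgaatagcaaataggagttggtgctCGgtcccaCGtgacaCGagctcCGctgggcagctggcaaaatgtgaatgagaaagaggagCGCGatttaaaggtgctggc

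Lhx9 chr1:138842445-138842694 (minus strand), Lhx6 chr2:36105409-36105658 (minus strand) and Six3 chr17:85620584-85620833 (plus strand) had the most promoter bases under NSC peaks, 20341, 20257 and 17161 bp in their promoter windows. All 250 bases of Lhx9 and of Lhx6 lay under a peak in both lists, and of Six3 189 bases did in NSC and 200 in NSC Bmi1Over.
Lhx9 upstream: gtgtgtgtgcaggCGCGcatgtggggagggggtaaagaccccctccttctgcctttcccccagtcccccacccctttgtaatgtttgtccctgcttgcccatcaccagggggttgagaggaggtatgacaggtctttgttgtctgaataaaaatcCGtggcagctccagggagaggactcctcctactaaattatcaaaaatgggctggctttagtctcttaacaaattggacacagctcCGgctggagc
Lhx6 upstream: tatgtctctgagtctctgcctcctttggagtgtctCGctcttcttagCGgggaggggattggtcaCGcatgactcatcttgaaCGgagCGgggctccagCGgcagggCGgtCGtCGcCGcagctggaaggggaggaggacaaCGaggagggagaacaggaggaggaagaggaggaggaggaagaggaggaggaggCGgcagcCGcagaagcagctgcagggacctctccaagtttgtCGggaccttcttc
Six3 upstream: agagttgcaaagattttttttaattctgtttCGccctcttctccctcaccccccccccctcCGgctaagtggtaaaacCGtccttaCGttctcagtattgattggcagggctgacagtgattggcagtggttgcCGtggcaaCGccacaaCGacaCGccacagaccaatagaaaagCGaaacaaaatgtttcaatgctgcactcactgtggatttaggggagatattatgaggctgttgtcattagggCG

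Lhx2 chr2:38339031-38339280 (plus strand) and Nkx2-1 chr12:56536909-56537158 (minus strand) were added after their values had been seen, as the highest of the set and as the gene called higher in NSC Bmi1Over. No base of the Lhx2 sequence lay under a peak in either list, although 63.6% of its promoter windows did in NSC, and all 250 bases of Nkx2-1 did in both lists.
Lhx2 upstream: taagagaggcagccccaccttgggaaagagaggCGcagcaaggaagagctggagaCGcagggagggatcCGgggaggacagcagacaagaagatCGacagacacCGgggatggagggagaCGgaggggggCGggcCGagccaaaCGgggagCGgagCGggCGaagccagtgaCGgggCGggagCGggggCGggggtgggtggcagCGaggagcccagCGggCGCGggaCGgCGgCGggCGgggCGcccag
Nkx2-1 upstream: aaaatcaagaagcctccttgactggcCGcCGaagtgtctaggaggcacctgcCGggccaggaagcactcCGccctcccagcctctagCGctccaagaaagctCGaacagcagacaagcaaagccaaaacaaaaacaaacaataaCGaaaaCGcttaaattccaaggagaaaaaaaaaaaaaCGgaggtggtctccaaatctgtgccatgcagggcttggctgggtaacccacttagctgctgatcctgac

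The RefSeq starts of Nkx2-2, Lhx9, Six3 and Dbx2 lie 7841, 6133, 7226 and 1189 bp from the outermost annotated 5′ end of the gene. Of the 34 starts, 21 lie within 100 bp of that end, and the largest distance is 9657 bp. The sequences held between 4 CG dinucleotides at Lhx9 and 25 at Lhx2, with ratios of observed to expected CG of 0.22 and 0.89. Over the 34 genes the median ratio was 0.7, and 24 (70.6%) reached 0.6, compared with a median of 0.37 and a share of 34.0% among all 32851 promoters of the table. The median ratio was 0.7 where the 5′ end lay under an NSC peak (22 genes), 0.72 where it did not (12 genes) and 0.54 at the 3 genes without an NSC promoter peak, of which 1 reached 0.6. For displaced starts this sets the mark at one site beside the sequence at another. The letters TAATTA, a core that many homeodomains bind and that reads the same on both strands, occurred in the 250 bases of 2 of the 34 genes (5.9%), Otx2 and Msx2, and of 4.8% of all promoters.

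Silent and expressed genes differed in whether the start site itself was covered. At 28 genes every annotated TSS lay under an NSC peak. Of these, 16 had at most 3 reads over both NSC libraries, and 6 reached 1 TPM in both: Emx2, En2, Barhl2, Irx1, Isl2 and Msx1. At the 10 genes with no TSS under a peak, 9 reached 1 TPM in both NSC libraries, with medians of 8.28 and 8.68 TPM, and Gsx2 was the exception. At the 6 with only some TSSs under a peak, Lhx2, Six3, Dlx2 and Irx2 reached 1 TPM and Lhx3 and Dlx1 did not in both libraries. Across the 44 genes, Spearman's rho between the percent of the promoter windows covered and TPM was -0.56 in NSC and -0.62 in NSC Bmi1Over. This is a description across genes, several of which share a domain, and the ChIPSeq and RNASeq values come from different libraries.

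**Figure D4:**
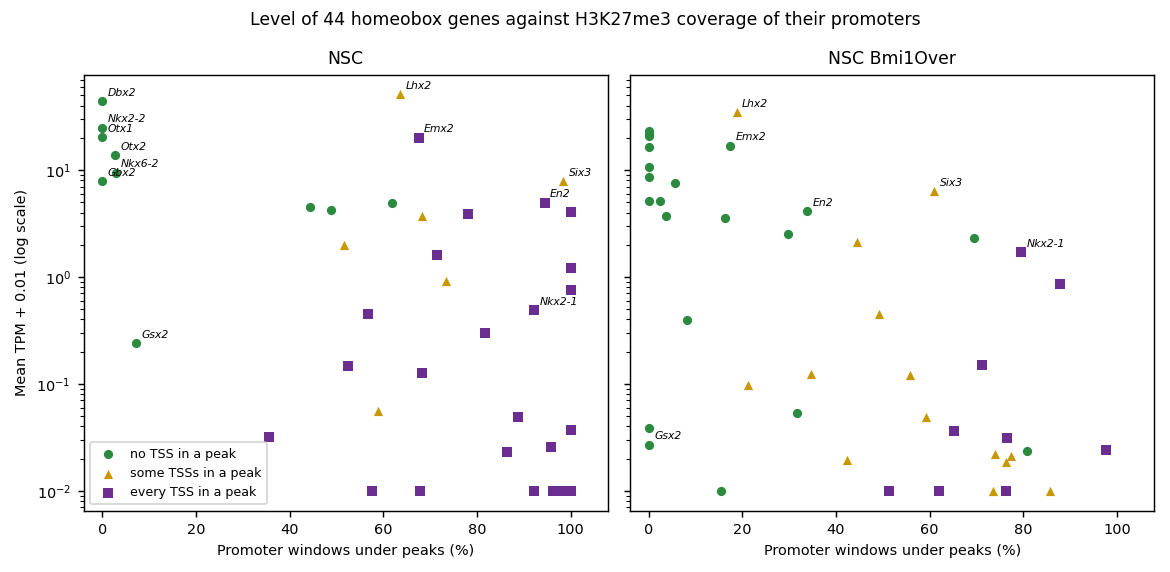
Mean TPM plus 0.01 (log axis) of each homeobox gene against the percent of its promoter windows under H3K27me3 peaks, for NSC (left) and NSC Bmi1Over (right), with colour and shape giving whether no (10 and 21 genes), some (6 and 14) or every (28 and 9) annotated TSS lay under a peak. The purple squares in NSC lie mostly below 1 TPM, with Emx2 and En2 among the exceptions, and Lhx2 is high with 63.6% of its windows covered.

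In NSC Bmi1Over, where peaks were shorter, every TSS was covered at 9 genes, of which only Nkx2-1 reached 1 TPM in both libraries. No TSS was covered at 21, of which 15 reached it. Of the 6 below it, Six2, Irx4, Irx6 and Gsx2 had at most 1 read over both libraries, so an uncovered start was also found at silent genes. A narrow peak-free stretch at the 5′ end inside an otherwise marked locus was found at expressed and at silent genes. In NSC Bmi1Over it measured 306 bp at Isl1, 477 bp at Dlx4, 521 bp at Six2 and 770 bp at Lhx1, which had no read or 1. It measured 1795 bp at Six3 and 2115 bp at Lhx2, which were expressed. In NSC this stretch measured 513 bp at Lhx2, 672 bp at Irx2, 884 bp at Gsx1, 1731 bp at Irx5, 1817 bp at Irx3 and 2098 bp at Dlx2, and Gsx2, with 6 and 0 reads in the NSC libraries, also had one of 683 bp.

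The most highly expressed gene of the set was Lhx2, which maintains cortical progenitors. It stood at 51.6 and 50.3 TPM in NSC and 32.2 and 37.3 in NSC Bmi1Over. Both NSC Bmi1Over libraries were below both NSC libraries, with a log2 fold change of -0.31 ± 0.13 (SE) that was not called (adjusted p = 0.201, edgeR). Its locus on chr2:38339281-38369733 carried 16 promoter peaks in NSC, the widest 7592 bp long, and 11 in NSC Bmi1Over, the widest 776 bp.

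Emx2, a patterning gene of the cortex and hippocampus, had 20.6 and 19.5 TPM in NSC and 17.2 and 16.6 in NSC Bmi1Over. After TMM normalisation its libraries overlapped and its log2 fold change was -0.02, or 0.002 when the stranded columns were summed. All 3 of its TSSs lay under NSC peaks and none under NSC Bmi1Over peaks. Its paralogue Emx1, also a cortical gene, had at most 4 reads in a library and 68.2% and 34.7% of its promoter windows covered.

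Anterior forebrain genes differed in their marking. Otx1 and Otx2 pattern the forebrain and midbrain. Otx1 stood at 19.1 and 21.2 TPM in NSC and 20.5 and 22.6 in NSC Bmi1Over, and the nearest NSC peak to its 5′ end lay 2056337 bp away. Otx2 had 18.7 and 8.93 TPM in NSC and 20.7 and 12.4 in NSC Bmi1Over, so that the replicates within a genotype differed more than the genotypes did. It carried 2 short peaks in NSC, 598 bp together, at none of its 10 TSSs, and none in NSC Bmi1Over.

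Six3, which protects anterior forebrain identity, had 10.3 and 5.31 TPM in NSC and 7.01 and 5.67 in NSC Bmi1Over, while 98.5% and 61.0% of its promoter windows were covered and 1 of its 3 TSSs lay under a peak in each list. Six3os1, which overlaps Six3 on the opposite strand, had 15.2 and 10.4 TPM in NSC and 11.4 and 12.2 in NSC Bmi1Over. Counting took no account of strand, so reads in exon bases shared by genes on the 2 strands were ambiguous and left out. Those bases, 5.03% of Six3, stayed in the exon length used for TPM, which can make a level too low. Six6, with 2 reads in all, lay under a 20834 bp domain. Six2, a kidney progenitor gene, had 1 read and 80.9% of its promoter windows covered even in NSC Bmi1Over.

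Most ventral forebrain genes were low, with Gsx1 the exception. Dlx1 and Dlx2 drive the development of inhibitory interneurons and share a 12603 bp NSC peak that covered most of Dlx1 and ended before the 3′ end of Dlx2. Dlx2 had 2.32 and 1.67 TPM in NSC, from 52 and 32 reads, and 0.204 and 0.573 in NSC Bmi1Over, from 3 and 29 reads. The groups did not overlap and its log2 fold change of -1.86 ± 0.43 (SE) was the most negative of the set, yet was not called (adjusted p = 0.0642, edgeR). Dlx2 was called in 5 of the 10 alternatives that gave it an adjusted p. Of these, library size alone, every gene that had a read and a replicate block used all 4 libraries. Over all genes they called 537, 2356 and 3459, against 334. The others left out NSC replicate 2 or NSC Bmi1Over replicate 1. With a library left out the log2 fold change ran from -3.06 to -1.53. In every fit without a library, here and below, the genotype left with 1 library is assumed to vary like the other genotype, which alone gives the spread. Calls from such fits show how a value depends on single libraries and are no support for a change.

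Dlx1 had 1.08 and 0.746 TPM in NSC and 0.323 and 0.565 in NSC Bmi1Over, a log2 fold change of -0.68 ± 0.38 (adjusted p = 0.296, edgeR). Its antisense transcript Dlx1as stood at 5.15 and 4.85 TPM in NSC and 4.75 and 3.74 in NSC Bmi1Over and was not called. Promoter coverage of Dlx2 was 51.6% in NSC and 8.25% in NSC Bmi1Over, and that of Dlx1 73.3% and 49.1%. Dlx5 had no read and Dlx6 2 in all 4 libraries together, both under the shared domain described above. Dlx3, an epidermal and tooth gene, had 10 and 7 reads in NSC and 0 and 4 in NSC Bmi1Over and was too low to be tested, and Dlx4 had 1 read.

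Gsx1 and Gsx2 specify progenitors of the ganglionic eminences. Gsx1 had 4.52 and 5.21 TPM in NSC and 4.59 and 5.73 in NSC Bmi1Over, with no TSS under a peak although 61.9% of its promoter window was covered in NSC and 2.43% in NSC Bmi1Over. Gsx2 had 6 and 0 reads in NSC and 0 and 1 in NSC Bmi1Over, with only 724 bp of its promoter windows under 3 NSC peaks. It was the single gene of the 10 with uncovered TSSs that was hardly expressed.

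Nkx2-1, which specifies the medial ganglionic eminence and, outside the brain, thyroid and lung, rose in NSC Bmi1Over. It had 0.537 and 0.420 TPM in NSC, from 12 and 8 reads, and 1.70 and 1.69 in NSC Bmi1Over, from 25 and 85 reads. The groups did not overlap, and the log2 fold change was 2.05 ± 0.36 (SE, adjusted p = 0.0374, edgeR). The call rests on few reads and was lost without NSC replicate 1 (adjusted p = 0.0638) and without NSC Bmi1Over replicate 2 (adjusted p = 0.108), with log2 fold changes of 2.19 and 2.01. The gene was marked in both lists: a 15513 bp peak with a fold of 8.67 covered its whole body on chr12:56531958-56536908 in NSC, and in NSC Bmi1Over 82.7% of the body and both TSSs were covered, under a widest peak of 7813 bp. It was the only gene of the 9 with every TSS covered in that list that reached 1 TPM in both NSC Bmi1Over libraries. Lhx6 and Lhx8, which act after Nkx2-1 in interneurons and cholinergic neurons, had 1 read each in all, under NSC domains of 20739 and 17037 bp.

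Progenitor genes of the ventral and intermediate neural tube ranged from strongly expressed to silent. Dbx2, which marks progenitors of spinal interneurons, fell in NSC Bmi1Over. It stood at 46.1 and 41.6 TPM in NSC, from 1259 and 968 reads, and 22.95 and 18.5 in NSC Bmi1Over, from 411 and 1140 reads. No library of one genotype overlapped the other, and the log2 fold change was -0.86 ± 0.14 (SE, adjusted p = 0.0311, edgeR). It was called in all 12 alternative settings, with log2 fold changes of -0.97 to -0.74 when a library was left out. No peak lay near it in either list, the nearest being 1139810 bp from its 5′ end in NSC and 1137552 bp in NSC Bmi1Over, on chr15 where the gene spans 95623563 to 95655960. Its paralogue Dbx1 had no read in any library and 96.3% and 62.0% of its promoter window under peaks.

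Nkx2-2, a ventral progenitor and oligodendrocyte lineage gene, had 26.1 and 23.7 TPM in NSC and 25.1 and 21.0 in NSC Bmi1Over, with no peak within 67634 bp of its 5′ end in NSC. Its log2 fold change was 0.11 ± 0.14, and -0.04 when scaled by library size alone. Nkx6-2, which acts in ventral progenitors and myelination, had 9.33 and 9.53 TPM in NSC and 13.8 and 7.49 in NSC Bmi1Over, and a lone 288 bp peak in NSC. Nkx2-2 and Nkx6-2 share 9.67% and 12.9% of their exon bases with genes on the opposite strand. Nkx6-1, under the domain of highest fold, had no read in NSC and 4 and 2 reads in NSC Bmi1Over. Each paralogous pair of Dbx and Nkx6 genes thus held an expressed gene with little or no mark and a nearly silent one under a broad domain.

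Genes of the midbrain and hindbrain boundary were Gbx2, En1 and En2. Gbx2, an anterior hindbrain gene, had 7.24 and 8.42 TPM in NSC and 9.08 and 8.24 in NSC Bmi1Over, and no promoter peak. Of its exon bases, 43.5% are shared with a gene on the opposite strand, D130058E05Rik, itself at 11.6 to 13.8 TPM. Reads there were left out as ambiguous, so the level of Gbx2 is uncertain and can be too low. En2, a cerebellar patterning gene, had 5.57 and 4.34 TPM in NSC and 4.54 and 3.67 in NSC Bmi1Over, although its TSS lay under an NSC peak, with a further peak of 12064 bp starting downstream of it. In NSC Bmi1Over 33.8% of its promoter window was covered and the TSS was free. En1, which patterns the midbrain, had 0.872 and 0.625 TPM in NSC and 1.33 and 0.366 in NSC Bmi1Over, under a 17185 bp NSC domain.

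The Iroquois genes, which pattern the neural plate and the heart, were mostly expressed at a few TPM. Irx2 stood at 3.95 and 3.41 TPM in NSC and 10.8 and 4.21 in NSC Bmi1Over, above NSC in both libraries but far apart from each other, with a log2 fold change of 1.20 ± 0.39 (adjusted p = 0.116, edgeR). It was called without NSC replicate 1, NSC replicate 2 or NSC Bmi1Over replicate 2, at adjusted p of 0.045, 0.0215 and 0.0131, the last resting on the higher of the 2 NSC Bmi1Over libraries alone, and was 0.46 on the log2 scale without NSC Bmi1Over replicate 1. DESeq2 also called it (log2 fold change 1.23, adjusted p = 0.0178). Its promoter coverage was 68.3% in NSC, in 12 peaks, and 5.71% in NSC Bmi1Over, in 2.

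Irx1, Irx3 and Irx5 varied more between the NSC Bmi1Over cultures than between genotypes. Irx1 had 4.27 and 3.47 TPM in NSC and 4.88 and 2.26 in NSC Bmi1Over. Irx3 had 4.56 and 3.94, then 5.26 and 2.17, and Irx5 had 4.999 and 4.003, then 6.88 and 3.46, in the same order of libraries. In all 4 expressed Irx genes NSC Bmi1Over replicate 1 was the highest library, and their promoter coverage was lower in NSC Bmi1Over, from 78.1% to 16.3% at Irx1, 48.8% to 3.61% at Irx3 and 44.3% to 0 at Irx5. Irx4 had no read, with 57.6% and 15.4% of its promoter windows covered, and Irx6 had 1 read in each of 2 libraries, with 35.7% covered in NSC and none in NSC Bmi1Over.

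The LIM-homeodomain genes of motor neurons and other other neurons were at or near 0 apart from Isl2 and Lhx9. Isl2, a motor neuron gene, had 1.45 and 1.77 TPM in NSC and 2.21 and 2.03 in NSC Bmi1Over, without overlap and with a log2 fold change of 0.63 ± 0.32 (adjusted p = 0.262, edgeR). All 4 of its TSSs lay under an 11253 bp NSC domain. Isl1 and Lhx1 had no read, Lhx3, Lhx4 and Lhx5 at most 2 in a library, and 58.9% to 100% of the promoter windows of these 5 genes was covered in NSC and 42.4% to 85.8% in NSC Bmi1Over. Lhx9, a gene of the diencephalon and gonad, had 0.348 and 0.235 TPM in NSC and 0.163 and 0.0594 in NSC Bmi1Over, a log2 fold change of -1.46 ± 0.52 from 8 to 26 reads a library (adjusted p = 0.141, edgeR). It was -2.02 without NSC Bmi1Over replicate 1 (adjusted p = 0.05, edgeR) and -0.64 without NSC Bmi1Over replicate 2.

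Barhl2, which acts in the diencephalon and spinal cord, had 4.34 and 3.67 TPM in NSC and 2.34 and 2.71 in NSC Bmi1Over, without overlap, with a log2 fold change of -0.40 ± 0.27 (adjusted p = 0.382, edgeR). It was expressed with its only TSS under a 19616 bp NSC domain, while in NSC Bmi1Over the widest peak was 1037 bp and the TSS was free. Barhl1, a cerebellar and inner ear gene, had at most 12 reads. Msx1, a dorsal neural tube, neural crest and tooth gene, had 1.11 and 1.30 TPM in NSC and 2.82 and 1.75 in NSC Bmi1Over, without overlap, a log2 fold change of 1.10 ± 0.34 (adjusted p = 0.104, edgeR). Its whole promoter window lay under a 15332 bp peak in NSC, and in NSC Bmi1Over 69.5% was covered with neither TSS under a peak. Msx2 had at most 3 reads in a library and 88.8% and 65.2% of its window covered.

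**Figure D5:**
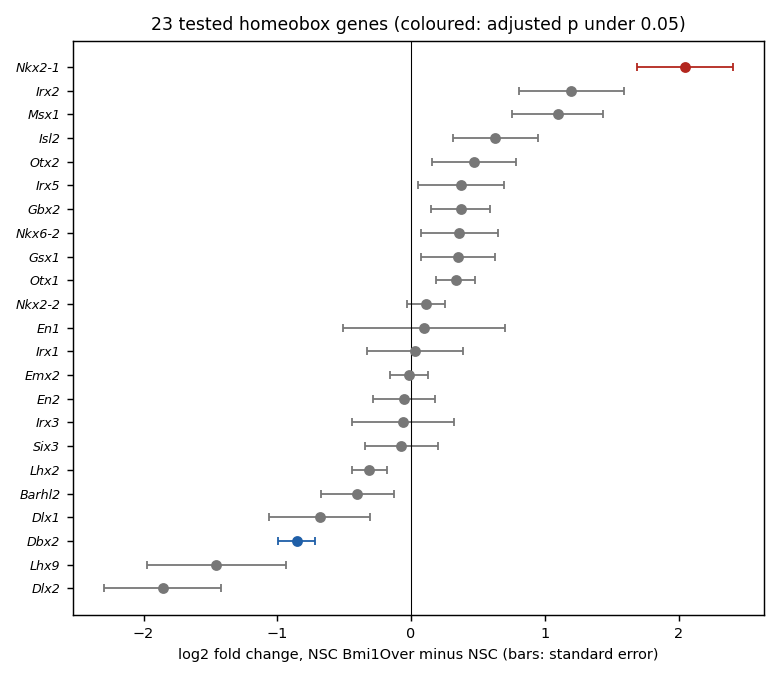
Fitted log2 fold change (NSC Bmi1Over minus NSC) with its standard error for the 23 homeobox genes that passed the filter on low counts, from 2 libraries of each genotype. Nkx2-1 (red, 2.05) and Dbx2 (blue, -0.86) passed an adjusted p of 0.05, and the grey genes did not.

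Of the 44 genes 23 had enough reads to be tested, and 1 was called higher, where the share over all 15521 genes tested was 2.03%, and 1 lower, where it was 0.122%. The 23 passed a filter that genes high in either genotype could pass, and the other 21 were at most 0.487 TPM. With 2 libraries a genotype, 6 of the 23 lay above NSC without overlap in normalised CPM (Irx2, Nkx2-1, Gbx2, Otx1, Isl2 and Msx1) and 6 below (Lhx2, Lhx9, Dlx1, Dlx2, Dbx2 and Barhl2), where 29.0% and 30.0% of all genes did. The median log2 fold change of the 23 was 0.10, against -0.01 over all genes tested, and 4 were higher and 4 lower at an unadjusted p under 0.05, where 17% and 7.22% of all genes tested were. The genes called depended on single libraries, as did the calls over all genes, which numbered 334 with all 4 libraries, 176 without NSC replicate 1, 1461 without NSC replicate 2, 2546 without NSC Bmi1Over replicate 1 and 230 without NSC Bmi1Over replicate 2. Without NSC replicate 1, those called higher were Irx2 and Otx2 (2 genes), without NSC replicate 2 Irx2 and Nkx2-1 (2 genes), and without NSC Bmi1Over replicate 2 Irx2 in place of Nkx2-1. Those called lower were Dbx2 and Dlx2 (2 genes) without NSC replicate 2 or without NSC Bmi1Over replicate 1. The median was -0.01 without NSC replicate 2 and -0.11 without NSC Bmi1Over replicate 1.

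The genes whose promoter peak was in the NSC list alone were not called between the genotypes in the main fit. Nkx6-2, Otx2 and Irx5 had log2 fold changes of 0.36 ± 0.29, 0.47 ± 0.31 and 0.38 ± 0.32, and Gsx2 and Irx6 were too low to be tested. Otx2 ran from 0.07 to 1.05 when a library was left out, and passed the threshold without NSC replicate 1, where the NSC library that remained was the lower one. It also passed with the replicate block (adjusted p = 0.0107, edgeR), which called 3459 genes in all, against 334. Of the 2 genes that were called, Nkx2-1 kept both TSSs under a peak in both lists and Dbx2 had no promoter peak in either.

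Cofactors that bind homeodomain or LIM-homeodomain proteins were examined as the other genes of the pathway: the LIM adaptors Ldb1 and Ldb2, the Lmo, Ssbp, Meis, Pbx, Pknox and Tgif genes and the Tle co-repressors. All 26 listed were expressed and tested, and none was called in either direction by edgeR's quasi-likelihood test, with 9 at an unadjusted p under 0.05, where 24.2% of all genes were. DESeq2 called 4 (1496 over all genes), all lower, namely Meis2, Tle1, Lmo3 and Lmo1, which were also the genes called when scaled by library size alone. Without NSC replicate 2 edgeR called 5 (1461 over all genes), without NSC Bmi1Over replicate 1 it called 4 (2546), and without NSC Bmi1Over replicate 2 it called 1 (230). The median log2 fold change of the 26 was -0.19. Lmo1, a LIM-only protein that competes for Ldb1, had 82.2 and 65.8 TPM in NSC and 39.3 and 41.8 in NSC Bmi1Over (log2 fold change -0.62 ± 0.14), and Ldb1 itself had 128.1 to 131.9 and 128.1 to 133.3.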

How the data were processed

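RNASeq values were the counts of reads per gene that the authors obtained after trimming with Trim Galore and alignment to mm10 with STAR, and deposited without normalisation. The unstranded column was used, since the other columns each held about 50% of the reads. Between 65.9% and 72.2% of the reads of a library were counted on genes, and reads that were unmapped, ambiguous or in no gene were left out. For H3K27me3, the authors aligned reads with Bowtie2 (version 2.3.4 in the submitters' processing notes, which name the tools) and called broad peaks with MACS2 on each library, and deposited for each peak a fold enrichment over background (a ratio), which is quoted here, together with −log10 p-values and q-values, of which the q-value served only as an alternative threshold. The display score was left aside. The lists hold no read depth, and the ranges of aligned reads in the methods of the paper are not tied to single lists.

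Gene identifiers were matched to GENCODE vM21 (50462 of 50686). TPM were computed from the counts and the union length of exons. Counts of the 15521 genes kept by filterByExpr were normalised by TMM and tested with edgeR 4.0.16 (quasi-likelihood test, R 4.3.3, limma 3.58.1) between the 2 NSC and 2 NSC Bmi1Over libraries, with Benjamini-Hochberg adjustment over all genes and a threshold of 0.05. The biological coefficient of variation was 12.9%. DESeq2 1.42.0 was an alternative. Standard errors were derived from the F statistic. The paper states that the cultures were biologically independent, and p-values measure the spread between these cultures. Intervals were not computed for single counts, and the limit for a count of 0 is 3 reads and covers counting error only. Peaks were counted at a promoter when they overlapped the window of 5 kb around any annotated TSS by at least 1 bp, in Python 3.11.15, and the promoter sequences were compared with the genome with samtools 1.23.1. The edgeR and peak steps were tested on simulated data.

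The members and lists were chosen with earlier results of these data known. Values in every library are given for genes called in either direction, with a mean of at least 1 TPM in either genotype, with a promoter peak in 1 list alone or none in NSC, or among the 5 largest log2 fold changes in each direction, and the others are given by ranges. Of the cofactors, those called were to be named, and none was, so that Lmo1, Ldb1 and the genes called by DESeq2 were named after their values had been seen. Upstream sequences were those of the 3 genes in the RefSeq table (which lacks Otx1) without an NSC promoter peak and of the 3 with the most promoter bases under NSC peaks. Alternatives were another normalisation, other filters on low counts, the stranded columns, protein-coding genes alone, a replicate block, leaving out each library, other promoter windows and stricter peaks.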

Additional observations from a re-analysis of the deposited data

How the results depend on the processing

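Dbx2 was called in all 12 alternatives and Nkx2-1 in 8 of the 10 that tested it with an adjusted p (range 5.5e-05 to 0.108). DESeq2 gave Nkx2-1 no adjusted p, and it fell below a filter at a mean of 1 CPM. The homeobox genes called higher numbered 3 with every gene that had a read (Msx1, Irx2 and Nkx2-1), 0 with the filter at a mean of 1 CPM, and 5 with a replicate block, which added Otx1 and Otx2. Those called lower numbered 2 with library size alone, 2 with every gene that had a read (Dbx2 and Dlx2 in both), and 3 with the replicate block, which added Lhx2. Over all genes these settings called 2356 of 28541 with every gene that had a read, 279 of 13330 with the 1 CPM filter, 537 of 15521 with library size alone and 3459 with the replicate block, against 334. Leaving out each library gave 1 to 2 higher and 1 to 2 lower, with 176 to 2546 called over all genes, and the genotype left with 1 library was assumed to vary like the other. Library size alone moved the median of all genes from -0.01 to -0.17 and that of the tested homeobox genes to -0.058, and leaving out libraries gave -0.11 to 0.22. Cofactors called numbered 4 with library size alone, 5 with every gene that had a read, 9 with the replicate block, 4 with DESeq2 and 0 to 5 with a library left out. Same-numbered libraries deviated together with a correlation of 0.235 over genes, but with only 2 pairs and no stated batch they share only a number.

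Signs turned with library size alone at Irx1 (-0.12), Nkx2-2 (-0.036) and En1 (-0.058), with the stranded columns at Emx2 (0.002) and with the replicate block at Six3 (0.003). With a library left out the log2 fold change ran from -0.44 to 0.43 at Six3, -0.51 to 0.53 at Irx1, -0.70 to 0.51 at Irx3, -0.11 to 0.81 at Irx5, -0.066 to 0.75 at Nkx6-2, -0.77 to 1.012 at En1 and -0.18 to 0.092 at En2. None of these genes was called. The cause was not tested. Of 268 single-gene values under an alternative, 232 kept their sign and their side of the threshold.

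Homeobox genes marked in NSC alone numbered 8 with a 1 kb window, 3 at a fold of at least 5 and 12 with peaks of at least 1000 bp, where 3.61%, 0.912% and 2.4% of protein-coding genes were. At a fold of at least 5, 1 gene, Emx2, was marked in NSC Bmi1Over alone, as were 0.377% of protein-coding genes. The median gene body covered in NSC Bmi1Over was 19.2% with peaks of at least 1000 bp. The number of genes at 1 TPM in every library was 17 to 18 with other counts or lengths, and 16 reached 2 TPM. Few reads limit the genes under 1 TPM, and 2 cultures a genotype limit every test.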

Other observations

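Antisense partners of the homeobox genes were counted as genes of their own. Otx2os1 had at most 10 reads in a library and Nkx2-2os at most 17, beside 253 to 924 reads of Otx2 and 372 to 1070 of Nkx2-2. Irx3os had 4 to 20 reads and was not called. Emx2os, which shares 8.79% of the exon bases of Emx2, stood at 2.08 and 2.40 TPM in NSC and 1.20 and 2.28 in NSC Bmi1Over. Dlx4os and Dlx6os2 had no read in any library, as had the transcripts that overlap Lhx3, Lhx5, Lhx6 and Irx6. Reads in exon bases shared with a homeobox gene were ambiguous and counted for neither gene. A low count or no read therefore does not by itself show that such a transcript was silent.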
